A study of Mus musculus with 4 samples.

Results

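The cells described here are smooth muscle cells and myofibroblasts of the fetal mouse lung at embryonic stage E14.5, taken from a single-cell RNA sequencing series on Cyp27a1. They were chosen by their counts of unique molecular identifiers (UMIs, 1 per captured transcript). A cell was kept with at least 800 detected genes, at least 2 UMIs of Myh11, at least 10 UMIs of Acta2, Tagln and Actg2 together, and no UMI of the heart muscle genes Myh6 and Nppa, the epithelial gene Epcam or the endothelial gene Cdh5. The rule kept 373 of the 43351 cells in the 4 libraries. Of these, 163 came from the library of the heterozygous mother, out of 4957 cells, and 210 from the library of the null mother, out of 4843 cells. The labels give the fetuses of both libraries the genotype Cyp27a1-/-. The heterozygous mother was Cyp27a1+/- and the null mother Cyp27a1-/-, and this was the difference the study was designed to compare. Each library was made from whole lungs dissociated with enzymes and treated to lyse red cells. The number of fetuses and litters behind a library is not given in the labels. With 1 library per mother there was no test between groups, and every interval printed is exact at 95% and covers counting error only.

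Smooth muscle of the fetal lung wraps the growing airways and vessels. It contracts through smooth muscle myosin, whose heavy chain is encoded by Myh11, pulling on actin filaments built from the products of Acta2 and Actg2, while Tagln encodes an actin-binding protein of the same filaments. Airway smooth muscle forms from mesenchyme next to the epithelium under Hedgehog and Wnt signals, and myocardin (Myocd) with serum response factor drives the contractile genes. Myofibroblasts share part of that actin machinery and lay down elastin and other matrix. CYP27A1 makes 27-hydroxycholesterol, a ligand of the liver X receptors (LXR).

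The 163 cells held 2391559 UMIs and the 210 cells 3730820 UMIs. A cell had a median of 14574 UMIs and 4202 genes with the heterozygous mother and 16918.5 UMIs and 4416 genes with the null mother. By Xist and Y-linked UMIs, 90 and 126 cells were female and 35 and 50 male. The cells of the 2 libraries shared 0 barcodes with each other, and 3 and 8 of them shared one with any other library. Cyp27a1 itself, on chromosome 1 (74713574 to 74737892, GRCm38), had 39 and 61 UMIs, or 16.3 and 16.4 CPM (UMIs of the gene per 1000000 UMIs of the summed cells). The ratio of the null over the heterozygous mother was 1.00 (0.660 to 1.54). The labels do not say which part of the gene was deleted, so these counts check no label.

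In the library of the heterozygous mother 3.29% of cells (2.81 to 3.82) met the rule, and in that of the null mother 4.34% (3.78 to 4.95), a ratio of 1.32 (1.07 to 1.63). The rule is on raw UMIs, and the library of the heterozygous mother was shallower, with a median of 3697 UMIs per cell against 6387. When every cell was thinned to 3000 UMIs and shallower cells were left out, 106 of 2658 and 122 of 2902 cells met the rule, and the ratio was 1.05 (0.806 to 1.38). At equal depth the interval of the ratio included 1. Some cells of other types reached both thresholds as well: 9 of 391 cells (2.30%, 1.06 to 4.32) and 11 of 561 cells (1.96%, 0.983 to 3.48) with at least 2 Epcam UMIs, at medians of 21491 and 21422 UMIs. The exclusion of Epcam removed these from the set.

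Genes that the rule did not use were those of smooth muscle. The rule chose the cells by genes of the same programme, so the values are a description. Of 7667 genes with enough UMIs, 256 were at least 2-fold higher than in the other E14.5 cells of the same library in both libraries, and 39 were at most at 0.5 of their level. Ratios to other cells are of CPM + 10. Calponin (Cnn1, chromosome 9, 22099216 to 22109630), which binds actin in differentiated smooth muscle, led with 521 against 17.0 CPM and 299 against 8.57 CPM. Myl9, the regulatory light chain that is phosphorylated when smooth muscle contracts, followed at ratios of 14.1 and 16.4. Leiomodin (Lmod1, 150 against 4.94 and 101 against 3.93 CPM), synaptopodin 2 (Synpo2, 142 against 4.25 and 90.1 against 3.22 CPM) and the light chain kinase Mylk (ratios 9.89 and 7.27) belong to the same machinery. The transcriptional coactivator Myocd was at 148 against 6.48 CPM and 106 against 4.12 CPM, and the lincRNA Carmn at ratios of 11.7 and 8.68. Growth factor and receptor genes were among the 20 highest too: Igf1 (ratios 11.7 and 12.5), the endothelin receptor Ednrb (7.85 and 11.1), the Wnt potentiating receptor Lgr6 (6.90 and 7.07) and the Hedgehog antagonist Hhip (5.53 and 6.13). The others of that set were Tgfbi, Fbxl22, Sulf2, Crh, Ckb, Itga9, Fhdc1, Tpm2 and Psd. Of the lists of other muscle and tissues, 9 skeletal muscle genes summed to 6.27 and 6.17 CPM, 8 neural genes to 5.44 and 3.48 CPM, and 5 genes of foregut and stomach mesenchyme to 6.69 and 1.88 CPM. Higher sums came from 12 heart muscle genes (784 and 459 CPM, of which Actc1 made up 695 and 387), 9 of adventitial fibroblasts (305 and 361 CPM), 6 of lung fibroblasts (211 and 187 CPM), 8 of red cells (302 and 407 CPM, mostly haemoglobin) and 8 of cartilage (116 and 112 CPM). The other lists were at 58.1 and 23.3 CPM for mesothelium, 96.2 and 118 CPM for endothelium and 15.9 and 36.5 CPM for epithelium.

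Cells at the edge of the rule had less Myocd and Lmod1, and more of 2 vascular genes, than cells with 20 or more Myh11 UMIs. At exactly 2 Myh11 UMIs, just inside, 24 and 25 cells had Myocd at 70.0 and 38.9 CPM and Lmod1 at 20.4 and 41.1 CPM. At 1 Myh11 UMI, just outside, 68 and 59 cells that met the other conditions had Myocd at 15.7 and 18.2 CPM and Lmod1 at 23.5 and 9.56 CPM. At 20 or more Myh11 UMIs, 53 and 67 cells had Myocd at 249.7 and 186 CPM and Lmod1 at 321 and 212 CPM. Pdgfrb, a gene of vascular smooth muscle and pericytes, went the other way. It was at 159 and 107 CPM at 1 Myh11 UMI, 137 and 86.5 CPM at 2, and 12.5 and 21.7 CPM at 20 or more. Notch3, of the same kind, was at 65.6 and 45.9, 64.1 and 36.8, and 42.5 and 24.2 CPM. The cut on Myh11 thus also left out cells with vascular genes.

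Many contractile genes are known targets of serum response factor, which binds the CArG box. The 250 bases before each transcript start in the RefSeq promoter table of GRCm38.p6 were searched on both strands for a full match to this box. It was found before at least 1 start in 5 of the 24 contractile genes outside the rule that the table held (20.8%), and in 439 of all 27025 genes (1.62%). The 5 were Cnn2, Myl9, Myl6, Vcl and Fhl1. Of the 4 contractile genes of the rule the table held Acta2 alone, with no full match in this window. Among genes of other lists the cardiac alpha-actin gene Actc1, described below, also had a box. Sequences are shown for 4 genes whose levels enter the results, 5′ to 3′ on the gene's strand, with the box in capitals and without bases that a GENCODE exon covers. They lie at chr2:156775214-156775419 (Myl9, plus strand), chr10:79988350-79988583 (Cnn2, plus strand), chrX:56779524-56779682 (Fhl1, plus strand) and chr2:114052888-114053125 (Actc1, minus strand). The stretches of Fhl1 and Actc1 lie within the bounds GENCODE gives the gene, which has other starts. A second RefSeq start of Fhl1 had no box.
Myl9: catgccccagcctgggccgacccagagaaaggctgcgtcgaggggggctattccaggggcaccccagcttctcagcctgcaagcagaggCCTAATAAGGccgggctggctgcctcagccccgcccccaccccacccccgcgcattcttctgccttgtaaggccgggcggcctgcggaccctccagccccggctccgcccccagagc
Cnn2: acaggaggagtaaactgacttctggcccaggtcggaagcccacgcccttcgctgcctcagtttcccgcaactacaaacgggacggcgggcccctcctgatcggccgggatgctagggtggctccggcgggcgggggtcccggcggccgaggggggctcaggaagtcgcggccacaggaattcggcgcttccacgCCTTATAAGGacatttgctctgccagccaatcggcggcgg
Fhl1: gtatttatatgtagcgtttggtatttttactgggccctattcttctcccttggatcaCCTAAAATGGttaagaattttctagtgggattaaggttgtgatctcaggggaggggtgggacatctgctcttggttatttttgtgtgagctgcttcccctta
Actc1: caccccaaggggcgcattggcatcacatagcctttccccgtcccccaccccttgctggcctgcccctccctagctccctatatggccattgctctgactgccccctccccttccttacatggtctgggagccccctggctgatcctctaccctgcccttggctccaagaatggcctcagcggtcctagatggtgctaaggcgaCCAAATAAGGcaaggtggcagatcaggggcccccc
The box begins 161 bases before the RefSeq transcript start in Myl9, 56 in Cnn2, 102 in Fhl1 and 47 in Actc1. A match of letters is a description and not a bound site.

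Clustering the 373 cells gave 6 clusters, described here by number and leading genes. The clusters were made from the same counts, so their genes are not tests. Cluster 1, with 46 and 32 cells, had the highest Myh11 (3886 and 3414 CPM), and Actc1, an actin of heart and early smooth muscle, was at 2760 and 3564 CPM. It also held the intermediate filament gene Des (1075 and 870 CPM), the muscarinic receptor gene Chrm2 (108 and 80.7 CPM). Some of its leading genes came from few cells: the neuropeptide gene Gal was found in 10 of its 78 cells and Il17b in 28, and 1 cell held 63 of the 84 Il17b UMIs of the null mother's cells. Of the heart muscle list, 4 of 12 genes were among the markers of this cluster, while cells with Myh6 or Nppa had been left out. Its markers also held 5 of 12 genes of airway smooth muscle and myofibroblasts and 1 of 15 of vascular smooth muscle and pericytes. Cluster 2, with 30 and 48 cells, was led by the mitotic genes Cdc20, Cenpf, Ube2c and Ccnb1, and had Top2a at 707 and 798 CPM. Cluster 3, with 22 and 54 cells, had the growth factor gene Fgf18 (147 and 287 CPM), the hormone gene Crh (219 and 271 CPM), Dcn (226 and 506 CPM) and the highest elastin (Eln, 1301 and 2490 CPM). Cluster 4, with 30 and 43 cells, had lower Myh11 (351 and 414 CPM), with the metalloprotease gene Adamdec1 at 83.9 and 87.3 CPM and the lung fibroblast factor Tcf21 at 89.5 and 86.0 CPM. Cluster 5, with 20 and 25 cells, had the lowest Myh11 (197 and 148 CPM), and 8 of the 15 vascular smooth muscle and pericyte genes were at least 2-fold over the other clusters in at least 10% of its cells. Its leading genes also held macrophage genes such as Pf4, nearly all from 1 cell described below. The vascular gene Ebf1 was at 150 and 122 CPM in cluster 5, where 13 of the 45 cells had it, and at no more than 3.53 CPM in any other. Cluster 6, with 15 and 8 cells, had a median of 2966 UMIs and globin genes among its markers, and is given no description as a cell state. Genes of cluster 1 were found there too, with Actc1 at 2416 and 301 CPM, Des at 561 and 339 CPM and Chrm2 at 58.0 and 0 CPM.

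**Figure D1:**
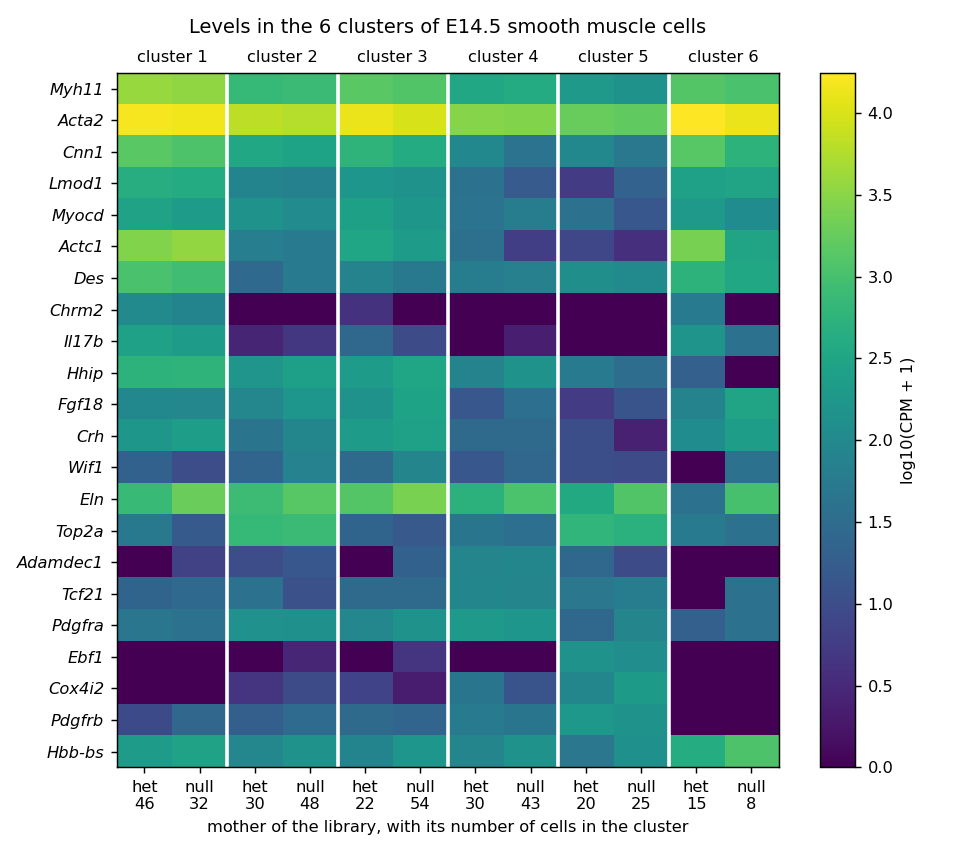
Colour gives log10(CPM + 1) of 22 genes (rows) in the 6 clusters, with the library of the heterozygous and the null mother side by side and the number of cells below each column. Actc1, Des and Chrm2 are highest in cluster 1 and also present in cluster 6, Ebf1 is highest in cluster 5, and Eln is brighter with the null mother in each cluster.

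The cells formed a range from weakly to strongly contractile. Within each library they were cut into terciles by the share of UMIs from the 4 contractile genes of the rule, whose median was 0.270% and 0.227% in the low tercile and 2.97% and 2.01% in the high one. These are ranges, not types. For single genes, the CPM here and in the airway and vascular split below leaves the 4 contractile genes out of the total. Sums over lists use the full total. Of 6487 genes, 525 (8.09%) were at least 1.5-fold higher in the high than in the low tercile in both libraries, and 532 (8.2%) at least 1.5-fold lower. Genes outside the rule followed the same order: Cnn1 was at 72.6, 499 and 1435 CPM from low to high with the heterozygous mother, and at 16.3, 244 and 870 CPM with the null mother. Lmod1 went from 13.6 to 409 CPM and from 9.39 to 290.5 CPM, and Actc1 from 13.6 to 2622 CPM and from 3.75 to 1399 CPM. The calcium-activated potassium channel gene Kcnma1, which damps smooth muscle tone, went from 0.907 to 85.3 CPM and from 1.25 to 83.5 CPM.

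S phase genes and some mesenchymal genes were higher in the low tercile. The 20 genes of S phase summed to 2310 CPM in the low and 665 CPM in the high tercile of the heterozygous mother's cells. With the null mother they summed to 2119 and 680.4 CPM. The 20 G2 and M phase genes were highest in the middle tercile, at 2880, 3821 and 446 CPM from low to high with the heterozygous mother and 3298, 3949 and 1604 CPM with the null mother. Snai2, a factor of mesenchymal cells, was at 123 and 10.4 CPM and at 122 and 10.8 CPM. Wnt2, a ligand of lung fibroblasts, was at 92.5 and 5.22 CPM and at 57.6 and 7.59 CPM. The low tercile also had more UMIs per cell, with medians of 18333 and 20965.5, against 11512.5 and 14147.5 in the high tercile. The part of depth in these differences was not tested.

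**Figure D2:**
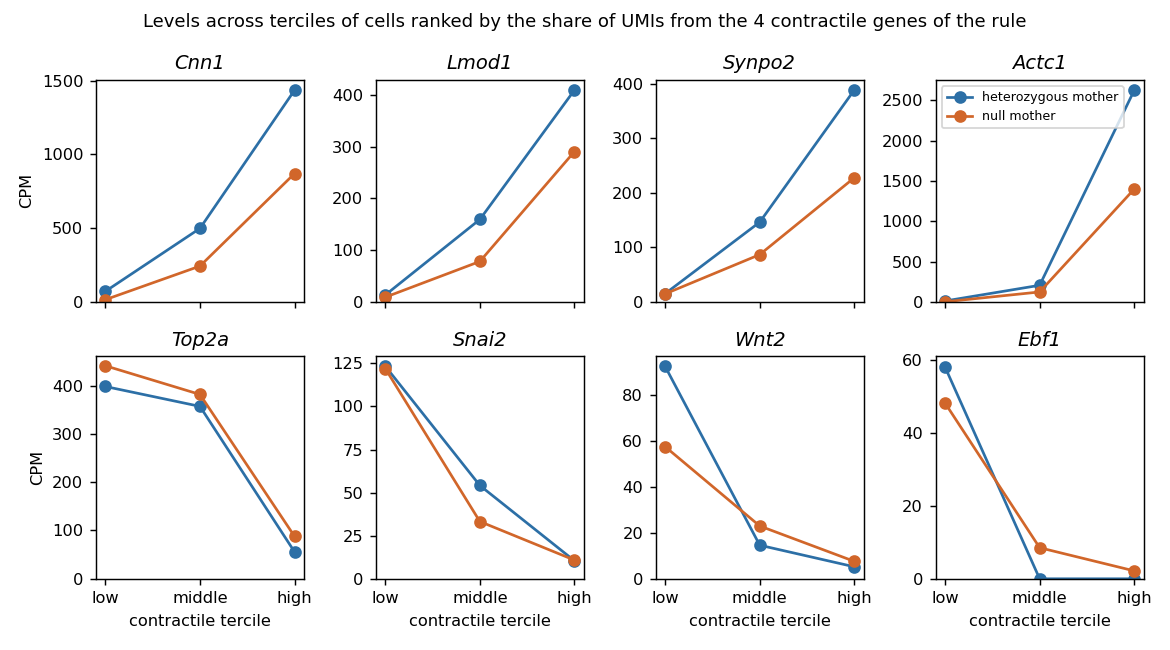
Each panel shows the level of a gene in CPM (vertical axis, from 0) in the cells of the low, middle and high contractile tercile, with 1 line per library. Cnn1, Lmod1, Synpo2 and Actc1 climb in both libraries, and Top2a, Snai2, Wnt2 and Ebf1 are lower in the high than in the low tercile.

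The cells were also split by airway against vascular genes. In 140 and 189 cells the 12 genes of airway smooth muscle and myofibroblasts had more UMIs than the 15 genes of vascular smooth muscle and pericytes, in 18 and 19 cells fewer, and in 5 and 2 cells as many. The lists differ in abundance, and Tgfbi alone gave 1135 of the 1803 CPM of the airway list with the heterozygous mother and 1370.5 of 2146 CPM with the null mother. The vascular list summed to 501 and 593 CPM, so the tally is not a measure of how many cells belong to either kind. Of 7659 genes, 214 (2.79%) were at least 1.5-fold higher on the vascular side in both libraries and 498 (6.5%) at least 1.5-fold lower. Beside the genes used for the split, the airway side had Crh (101 against 0 CPM and 132 against 2.38 CPM), Ednrb (937 against 113 and 976 against 61.8 CPM), Myocd (171 against 16.2 and 120 against 4.75 CPM) and the BMP antagonist Nog (66.1 against 0 CPM in both libraries). A floor of 3 UMIs was not applied to these zeros, so no fold is given. The vascular side had the adhesion genes Cdh2 (104 against 9.44 and 95 against 6.73 CPM) and Itga6 (77.7 against 5.96 and 92.6 against 3.37 CPM), and the imprinted genes Mest (803 against 181 and 831 against 126 CPM) and Dlk1 (926 against 290 and 874 against 223 CPM). Of the 37 cells on the vascular side 21 lay in cluster 5, while 22 other cells of cluster 5 lay on the airway side.

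Between the mothers, most genes were at near-equal levels. A gene counted as measured if the library with its higher CPM held 50 or more of its UMIs, and as past 1.5-fold when the ratio of CPM + 10 was at least 1.5 in either direction. Of 7221 measured genes, 84 (1.16%) were past 1.5-fold higher in the null mother's cells and 93 (1.29%) past it lower, 177 (2.45%) in all, and the median log2 ratio was -0.01. The log2 ratios below are on this scale and the ratios are of CPM itself. The libraries differ by the mother and by everything else that differs between 2 preparations, and these cannot be told apart. A gene list is described by its measured members, the number past 1.5-fold and its median log2 ratio, to be read beside those figures for all genes.

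**Figure D3:**
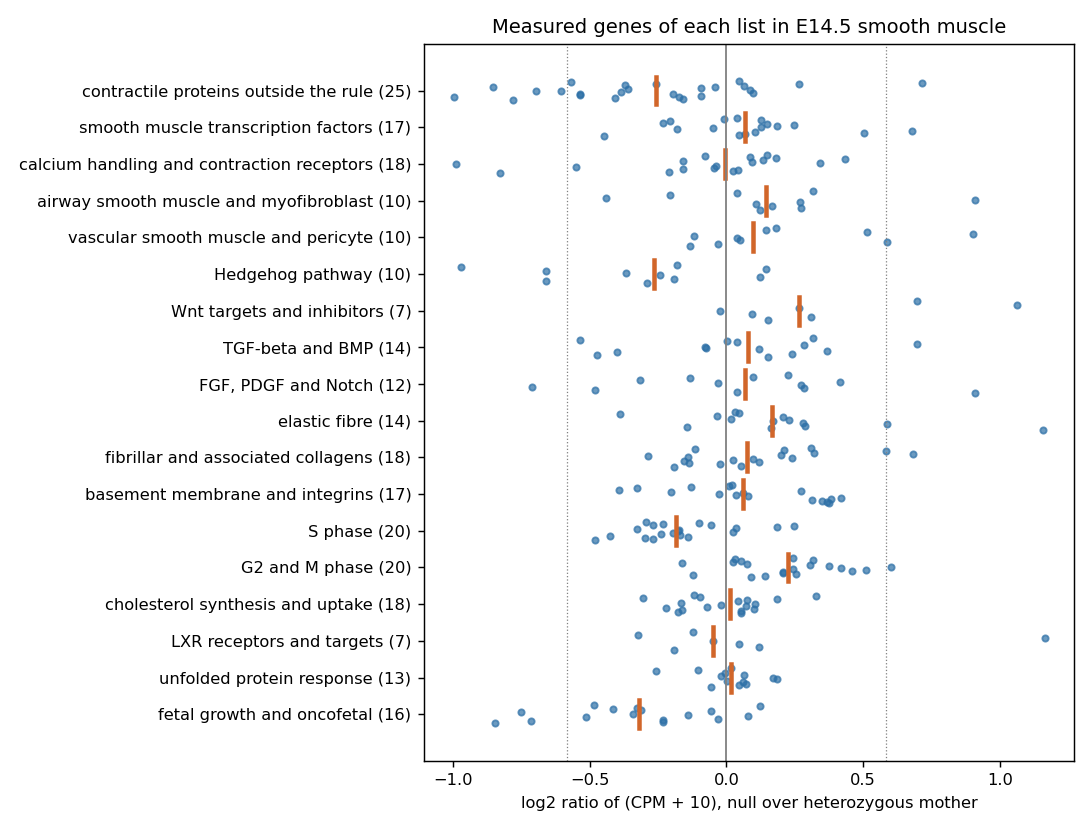
Each point is a measured gene, placed by its log2 ratio between the mothers (null over heterozygous, each as CPM + 10). Rows are gene lists with the number of measured genes in brackets, the vertical bar is the list's median, and dotted lines mark 1.5-fold. Contractile, Hedgehog and fetal growth genes lie mostly to the left of 0, and G2 and M phase genes mostly to the right.

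Contractile genes were lower with the null mother. Of 25 contractile genes outside the rule, all measured, 19 were lower and 6 higher, the median was -0.26, and 5 were past 1.5-fold lower against 1 higher. Des, the intermediate filament of muscle (chromosome 1, 75360329 to 75368579), was at 291 CPM with the heterozygous and 141 CPM with the null mother, a ratio of 0.484 (0.431 to 0.542). Cnn1 was at 521 and 299 CPM, with a ratio of 0.574 (0.529 to 0.623). Caldesmon (Cald1), which restrains actomyosin, was at 2995 and 1844 CPM, with a ratio of 0.616 (0.596 to 0.637). Synpo2 (142 and 90.1 CPM) and Pgm5, an adherens junction protein (28.4 and 11.3 CPM), were the others past 1.5-fold lower. Tpm2 (1366 and 941 CPM), Lmod1 (150 and 101 CPM), Myl9 (2049 and 1541 CPM) and Mylk (1860 and 1421 CPM) were lower by less than 1.5-fold. Fhl1, a LIM protein of muscle, was the member past 1.5-fold higher, at 143 and 242 CPM with a ratio of 1.69 (1.49 to 1.91). Of the genes with a CArG box shown above, Myl9 and Cnn2 (600 and 537 CPM) were lower and Fhl1 higher. The genes of the rule, as a description, were at 1305 and 931 CPM for Myh11, 7935 and 6146 CPM for Acta2, 2073 and 1741 CPM for Tagln and 1798 and 986 CPM for Actg2.

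The contractile genes were also compared within and outside cluster 1, which held 28.2% of the cells of the heterozygous mother and 15.2% of those of the null mother. Since the genes that define the cluster differ between the libraries, these shares are no measure of makeup. Within cluster 1 the median of the contractile list was -0.16 over 24 measured genes, 1 of them past 1.5-fold in each direction. Of all 1621 genes measured there 41 (2.53%) were past it higher and 113 (6.97%) lower, 9.5% in all. Outside it the median was -0.02 over 24 genes, 14 lower and 10 higher, with 0 past 1.5-fold lower and 1 higher. Of all 6661 genes measured outside, 101 (1.52%) were past it higher and 52 (0.781%) lower, 2.3% in all. The ratio of Des was 0.809 within and 0.825 outside cluster 1, and that of Cnn1 0.790 and 0.776, so each was nearer to 1 on either side than over all cells. The part of the cluster in the difference was not tested. Fhl1 was higher on both sides, at ratios of 2.11 and 1.58. Actc1 (chromosome 2, 114047282 to 114053548) was at 695 and 387 CPM over all cells, a ratio of 0.557 (0.518 to 0.598), at 2760 and 3564 CPM within cluster 1, and at a ratio of 0.498 outside it. The outside value includes cluster 6, of low depth, which held 125 and 8 Actc1 UMIs. Actc1 was at 64.6 and 56.2 CPM in cluster 2 and 310 and 210 CPM in cluster 3. It was at 35.4 and 5.13 CPM in cluster 4 and 7.02 and 2.90 CPM in cluster 5. In the 1189 and 1104 matrix-producing cells of the same libraries that had collagen UMIs but no Myh11, the contractile median was 0.03 over 22 genes. There, 60 (0.544%) of 11035 genes were past 1.5-fold higher and 29 (0.263%) lower, 0.807% in all.

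**Figure D4:**
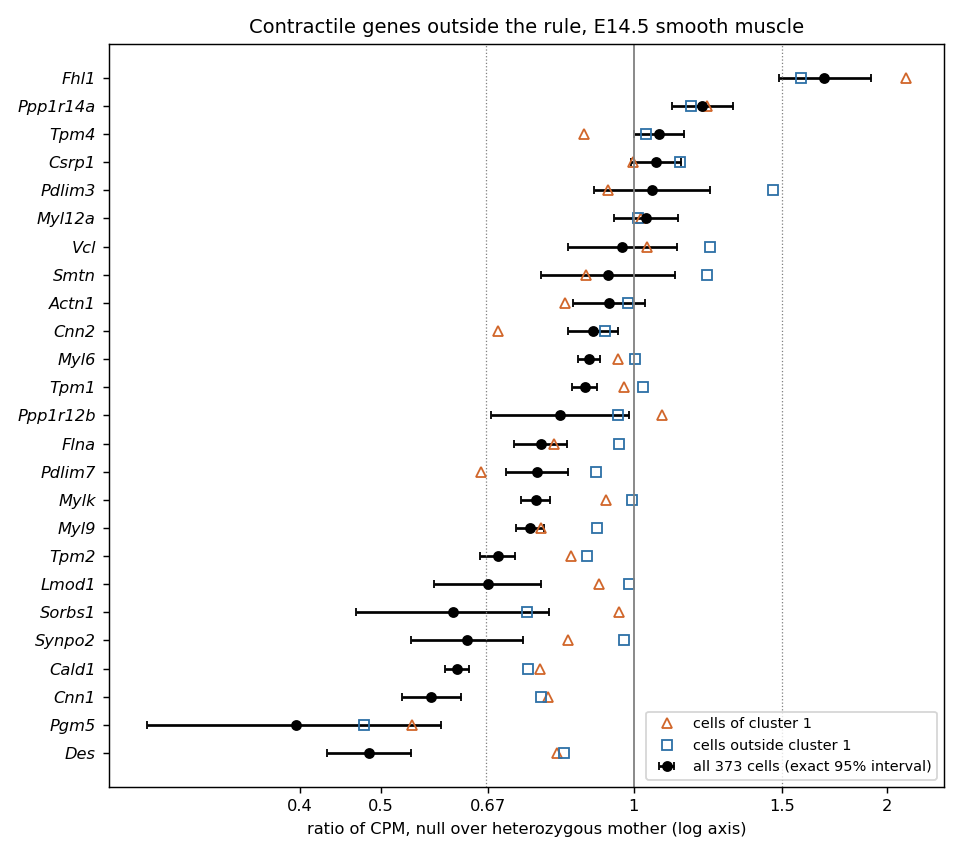
Ratios of CPM, null over heterozygous mother (log axis), for the 25 contractile genes: filled circles with exact 95% intervals for all 373 cells, triangles for cells of cluster 1, squares for cells outside it. Des and Cnn1 lie left of the 0.67 mark over all cells and nearer to 1 in both subsets, and Fhl1 lies right of 1.5 in each.

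Factors that control the programme were less uneven. Of 22 transcription factors 17 were measured, with a median of 0.07 and 1 past 1.5-fold. That was Mef2c, a factor of muscle differentiation, at 96.6 and 161 CPM, with a ratio of 1.67 (1.43 to 1.95). Myocd was at 148 and 106 CPM, with a ratio of 0.715 (0.618 to 0.828), and Srf at 41.8 and 43.4 CPM. Gata6 was at 14.6 and 24.9 CPM. The lung mesenchyme factors Tbx4 (80.3 and 97.0 CPM), Tbx5 (135 and 150 CPM) and Foxf1 (287 and 252 CPM) differed by less than 1.5-fold. The calcium and receptor list had a median of -0.01 over 18 genes, with 2 past 1.5-fold lower. These were Chrm2, the M2 receptor for acetylcholine (24.3 and 7.24 CPM, ratio 0.298, 0.182 to 0.479), a marker of cluster 1, and Cacna1c, the L-type calcium channel (46.8 and 22 CPM, ratio 0.469, 0.349 to 0.630). The endothelin receptors Ednra (113 and 146 CPM) and Ednrb (808 and 863 CPM) stayed within 1.5-fold.

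Among ligands and their inhibitors, Fgf18 and Wif1 stood out. Fgf18 (chromosome 11, 33117430 to 33147400), a growth factor made by distal lung mesenchyme, was at 66.1 and 133 CPM, with a ratio of 2.01 (1.68 to 2.42). Its ratio was 0.955 within cluster 1 (47 and 30 UMIs) and 2.33 outside it, and 0.898 in the matrix-producing cells. Wif1, a secreted Wnt inhibitor, was at 18 and 48.5 CPM, with a ratio of 2.70 (1.93 to 3.86). Its ratio was 0.449 within cluster 1, on only 10 and 3 UMIs, 3.00 outside it and 0.984 in the matrix-producing cells. The ligand gene Bmp4 was at 59.0 and 102 CPM, with a ratio of 1.73 (1.42 to 2.11). The Wnt list had a median of 0.26 over 7 genes, with 2 past 1.5-fold higher, Wif1 and Bmp4. Axin2, a direct Wnt target, was at 20.5 and 23.9 CPM, within counting error, and Lef1 at 48.1 and 61.9 CPM. Pdgfa, the ligand that recruits myofibroblasts, was at 56.9 and 30.8 CPM, with a ratio of 0.542 (0.419 to 0.700), and its receptor Pdgfra at 102 and 125 CPM. The log2 ratio of Pdgfa was -0.71, and 0.10 with the rule applied after thinning. The lists of airway and of vascular smooth muscle genes, each with 10 measured, had medians of 0.14 and 0.10. In the vascular list Ndufa4l2 (16.3 and 39.1 CPM) and Rgs5 (50.6 and 80.9 CPM) were past 1.5-fold higher, and the defining receptors Pdgfrb (53.9 and 52.5 CPM) and Notch3 (38.9 and 34.6 CPM) were not. For Ndufa4l2 1 cell held 30.8% and 27.4% of the UMIs, and its log2 ratio, 0.90 over all cells, was -0.56 in cells thinned to 3000 UMIs, -1.42 with the rule applied after thinning and -0.21 among male cells.

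Hedgehog genes leaned the other way. Of 10 measured, 8 were lower with the null mother, the median was -0.27, and 3 were past 1.5-fold lower. These were the coreceptors Gas1 (59.0 and 25.2 CPM, ratio 0.427, 0.326 to 0.559) and Cdon (38.5 and 20.6 CPM, ratio 0.537, 0.391 to 0.734) and the transcription factor Gli3 (41 and 22.2 CPM, ratio 0.543, 0.40 to 0.735). The targets that report pathway activity differed less: Gli1 was at 37.6 and 28.9 CPM, with a ratio of 0.769 (0.576 to 1.03), Ptch1 at 255 and 221 CPM, with a ratio of 0.869 (0.782 to 0.967), and Hhip at 214 and 233 CPM, with a ratio of 1.09 (0.978 to 1.22). In the matrix-producing cells the median of the list was 0.04.

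Among the matrix genes past 1.5-fold higher, elastin had the most UMIs. Eln (chromosome 5, 134702593 to 134747323), the core of elastic fibres, had 1692 UMIs with the heterozygous and 5930 UMIs with the null mother, or 707 and 1589 CPM, with a ratio of 2.25 (2.13 to 2.37). It was higher in each of the 6 clusters, from 38.7 and 1017 CPM in cluster 6 to 1301 and 2490 CPM in cluster 3. In the matrix-producing cells Eln was at 136 and 209 CPM, with a ratio of 1.54. Cells with at least 2 Epcam UMIs had Eln at 18.9 and 39.5 CPM, and cells with at least 2 Cdh5 UMIs at 228 and 39.4 CPM. The elastic fibre list as a whole had a median of 0.17 over 14 genes, with 2 past 1.5-fold higher, Eln and the assembly protein Fbln5 (29.3 and 49.1 CPM, ratio 1.68, 1.27 to 2.24). For Fbln5 the log2 ratio was 0.59, and -0.0076 in cells thinned to 3000 UMIs. The crosslinking enzyme Lox (174 and 202 CPM), the microfibril genes Fbn1 (168 and 189 CPM) and Mfap2 (669 and 754 CPM), and Mfap4 (1018 and 1193 CPM) were higher by less than 1.5-fold, and Loxl2 was lower (127 and 94.3 CPM).

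Other matrix genes were mixed. Biglycan (Bgn), a small proteoglycan, was at 527 and 852 CPM, with a ratio of 1.62 (1.51 to 1.73). The proteoglycan Fmod was at 11.3 and 33.8 CPM and the microfibril-associated Ltbp2 at 25.5 and 64.9 CPM, both named after their values were seen. P4ha3, a collagen prolyl hydroxylase subunit, was at 32.2 and 88.7 CPM, with a ratio of 2.76 (2.14 to 3.58). Col1a1 itself was at 1029 and 898 CPM. The collagen list had a median of 0.08 over 18 genes with 1 past 1.5-fold, Bgn. The basement membrane and integrin list had a median of 0.06 over 17 genes with 0 past 1.5-fold in either direction. Its chains Col4a1 (436 and 568 CPM) and Lama4 (116 and 155 CPM) were among those farthest above 1.

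**Figure D5:**
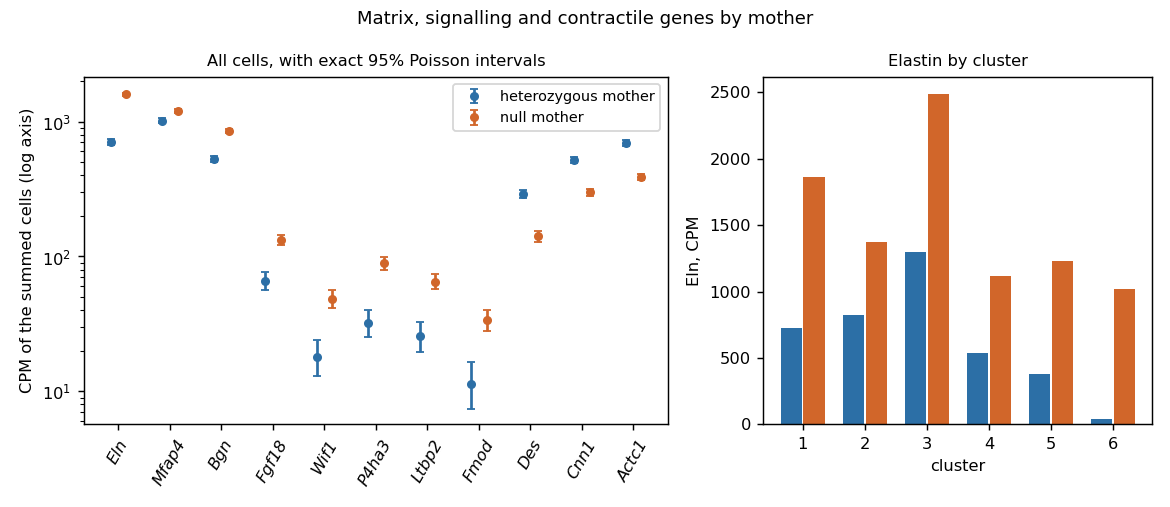
Left, levels in CPM (log axis) of 11 genes over all cells of each library, with exact 95% Poisson intervals; right, Eln in CPM by cluster, from 0, in the same colours. Intervals of the libraries do not overlap for any of the 11 genes. Most of these were named for their difference between the same libraries, so this is a description only. The bar of the null mother is the taller in each cluster, on 2 and 27 UMIs in cluster 6.

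Cell cycle genes split by phase. For the 20 S phase genes the median was -0.19, 16 lower and 4 higher, and the 20 G2 and M phase genes a median of 0.23, 18 higher and 2 lower. Nusap1, a spindle protein, was past 1.5-fold (70.7 and 113 CPM, ratio 1.59, 1.33 to 1.92), and no S phase gene was. With the clusters at equal weights the G2 and M phase median was -0.04. Outside cluster 1 it was 0.06, with 12 genes higher and 8 lower, and the S phase median was -0.31. In the matrix-producing cells the S phase median was -0.19, with 0 higher and 20 lower. There, the G2 and M phase median was -0.099, with 1 higher and 19 lower. Genes of fetal growth had a median of -0.32 over 16 genes, 14 of them lower and 3 past 1.5-fold. These were Hmga2, a chromatin protein of fetal cells (26.8 and 10.5 CPM, ratio 0.391, 0.255 to 0.591), the RNA-binding protein Igf2bp2 (71.1 and 39.4 CPM, ratio 0.554, 0.441 to 0.695) and Igfbp5 (163 and 92.7 CPM, ratio 0.569, 0.491 to 0.659). The median of this list in the matrix-producing cells was -0.26, and Hmga2 had a ratio of 0.271 there. Sterol genes differed little: cholesterol synthesis and uptake had a median of 0.01 over 18 genes with 0 past 1.5-fold. The LXR list had a median of -0.05 over 7 genes, with Abca1 at 28.9 and 32.2 CPM. Its member past 1.5-fold, Apoe, was at 61 and 149 CPM with 31.8% of its UMIs with the null mother in 1 cell. The unfolded protein response list had a median of 0.02 with 0 of 13 past 1.5-fold. The glucocorticoid receptor gene Nr3c1 was at 86.1 and 142 CPM, with a ratio of 1.65 (1.40 to 1.94). Among immediate early genes, Junb was higher (33.9 and 86.8 CPM) while Fosb (126 and 75.1 CPM) and Jund (615 and 387 CPM) were lower, and the list's median was 0.04 over 14 genes.

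The 12 genes with the highest log2 ratios held 6 macrophage genes: Pf4, Fcer1g, C1qb, C1qc, Tyrobp and C1qa. Pf4 was at 1.25 and 36.5 CPM, and 97.8% of its UMIs with the null mother lay in 1 cell. That share was 96.3% for C1qb, 98.6% for C1qc, 95.5% for C1qa, 92.0% for Fcer1g and 54.8% for Tyrobp. The 8 immune genes summed to 4.18 and 95.4 CPM, with Fcer1g at 0 UMIs with the heterozygous mother. Without the 2 cells that had at least 10 immune UMIs, the ratio was 0.657 for Pf4 and 0.986 for C1qb, and 1.67 for Apoe. The other 6 were Opcml (3.76 and 26.0 CPM, found in 8 and 63 cells, ratio 6.91, 3.49 to 15.6), the LIM protein gene Crip2 (39.7 and 107 CPM), P4ha3, Tm4sf1 (1.67 and 16.9 CPM), Apoe and Eln. Tm4sf1 was found in 1 and 13 cells, and 1 cell held 34.9% of its UMIs with the null mother. The 12 with the lowest were Myl4, Pcp4, Itih5, Smoc2, Ptn, Cpne5, Tmem158, Adam33, Il17b, Psd, Cxcl14 and Ncam1. Of these, Myl4, Pcp4, Itih5, Adam33, Il17b and Psd were among the leading genes of cluster 1. Over all cells the ratio was 0.359 for Il17b and 0.424 for Psd, and within cluster 1 it was 0.799 and 0.658. For Itih5 it was 0.209 over all cells, 0.204 within cluster 1 and 1.11 outside it. For Cxcl14 1 cell held 44.2% and 57.1% of the UMIs. Myl4, an atrial and embryonic myosin light chain, was at 36.8 and 4.82 CPM, with a ratio of 0.131 (0.0743 to 0.219). Within cluster 1 it was at 148 and 32.9 CPM. Pcp4, a calmodulin regulator, was at 40.6 and 8.31 CPM, with 182 and 92.7 CPM in cluster 1. Tmem158 (378 and 150 CPM, ratio 0.398, 0.358 to 0.443) was found in 137 and 150 cells and was lower both within and outside cluster 1, at ratios of 0.275 and 0.484. The adhesion molecule gene Ncam1 was at 107 and 45.8 CPM, and its ratios on these sides were 0.395 and 0.488. Sftpc, made by distal epithelium and named after its values were seen, was at 6.69 and 23.9 CPM in these cells and at 305 and 1633 CPM in the other cells of the libraries. The part of RNA from such cells in other differences was not tested.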

How the data were processed

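Single-cell RNA libraries (10x Chromium, per the labels' protocols) were analysed from the deposited matrix of UMI counts, 31053 genes by 43351 cells, which the authors made with Cell Ranger 3.0.0, mm10 and Seurat 4.3.0, per the submitters' processing notes, which give no order or settings. The list of genes was deposited under the name for cells and the reverse, as their contents show. Cells were assigned to libraries by the deposited annotation table. Counts of the chosen cells were summed per library and divided by their total (CPM). For single genes in the tercile and airway against vascular splits, that total left out the 4 contractile genes of the rule. Ratios are null over heterozygous mother, log2 ratios use a pseudocount of 10 CPM, and a gene needed 50 UMIs. With 3 UMIs as the limit of a count of 0, that limit was 1.25 and 0.804 CPM. Intervals are exact Poisson for sums, Clopper-Pearson for shares and conditional binomial for ratios. Cells were clustered with scanpy 1.11.5 and leidenalg 0.10.2 (Python 3.11.15; 2000 variable genes, 20 components, 15 neighbours, resolution 0.5, seed 1). No doublet caller was run; cells above the 95th percentile of UMIs were left out as an alternative. The comparison was run on simulated Poisson counts with known fold changes. Those counts held no variation between cells or libraries, so this checks the arithmetic and the counting intervals only. Other scalings used edgeR 4.0.16. Older symbols Mkl1 and Mkl2 stood for Mrtfa and Mrtfb. The cells and gene lists were chosen with earlier results of these data known. Named genes are the 12 highest and 12 lowest log2 ratios (haemoglobin, Xist, Y-linked, mitochondrial, predicted, Rik and rule genes left out), the 20 leading markers, and up to 4 measured members of each list farthest from 0 with those whose role orders the account. Gene positions are from the GENCODE annotation of GRCm38.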

Additional observations from a re-analysis of the deposited data

How the results depend on the processing

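The 84 and 93 genes past 1.5-fold (higher and lower with the null mother) became 204 and 187 with a pseudocount of 1 CPM, 34 and 20 with a minimum of 200 UMIs, 143 and 157 as a mean over cells, 42 and 51 when the rule was applied after thinning to 3000 UMIs, 212 and 142 with clusters at equal weights, and 127 and 56 among male cells. Lower genes numbered 145 with at least 5 Myh11 UMIs and 52 without cluster 1, an alternative chosen after seeing the data. The contractile median was below 0 in all 16 alternatives, from -0.44 to -0.0196, the last without cluster 1. The share ratio was 1.05 after thinning. Other medians that moved beyond the spread were 0.34 (calcium and receptors) and -0.28 (immediate early) with the rule after thinning, 0.77 (vascular) among female cells, 0.83 (Wnt), 0.40 (elastic fibre) and -0.34 (immediate early) among male cells, and 0.39 (elastic fibre) and 0.10 (S phase) in thinned cells; G2 and M phase reversed to -0.0447 with clusters at equal weights. The cause was not tested. Eln was past 1.5-fold higher in all 16 alternatives, with log2 ratios from 0.96 to 1.37. Of 52 named genes past 1.5-fold, 51 were still past it with TMM scaling, 52 with median ratio scaling and 30 without cluster 1. Single genes that reversed, as log2 ratios, were C1qa, C1qb, Pf4 and Tyrobp when cells over the 95th UMI percentile were dropped (-0.0061 each) and without cells of 10 immune UMIs, added after seeing the data (-0.0016, -0.0016, -0.0562 and -0.0016); C1qa (-0.075), Pf4 (-0.70), Ndufa4l2 (-1.42) and Pdgfa (0.10) with the rule after thinning; C1qb and Pf4 (-0.23 each), Ndufa4l2 (-0.21) and Pcp4 (0.77) among male cells; Pf4 (-0.063) and Tyrobp (-0.12) among female cells; Fbln5 (-0.0076) and Ndufa4l2 (-0.56) in thinned cells; and Itih5 (0.0556) without cluster 1. No paired analysis was possible because each group held 1 library. Depth limits the low genes: below 50 UMIs a gene was not compared.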
